A study of Mus musculus with 20 samples.

Results

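The genes described here act in corticosteroid signalling, in the left ventricle of the mouse: Nr3c1, which encodes the glucocorticoid receptor, Nr3c2, which encodes the mineralocorticoid receptor, and Hsd11b1, which encodes the enzyme that activates cortisone and its rodent counterpart. They were taken by gene symbol from the deposited count tables, where each has 1 line, and they are 3 of 24059 genes. The tissue was the left ventricular free wall of C57BL/6 males aged about 9 to 13 weeks, after perfusion of the heart with Tyrode solution, a salt solution that rinses out blood. The 20 libraries form 4 groups of 5. CardioGRKO mice (GRfl/fl alphaMHCCre/+) carry floxed Nr3c1 alleles and a Cre recombinase under a promoter of cardiomyocytes, that of alpha myosin heavy chain. They were sampled at ZT12, when the lights went off, and at ZT0, when the lights went on. Their GRflox littermates (GRfl/fl), sampled at the same times, carry the floxed alleles without Cre. Deletion of the receptor and presence of Cre therefore go together in CardioGRKO and cannot be told apart.

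Glucocorticoid and mineralocorticoid receptors are ligand-activated transcription factors of one family, which wait in the cytoplasm bound to heat shock proteins and act in the nucleus on shared DNA elements. The mineralocorticoid receptor binds aldosterone and, with high affinity, also corticosterone, the main glucocorticoid of mice. In cells that lack the inactivating enzyme, encoded by Hsd11b2, corticosterone can occupy it, and cardiomyocytes are known for this arrangement. The enzyme encoded by Hsd11b1 regenerates active glucocorticoid inside the cell from its inactive keto form, with NADPH supplied in the endoplasmic reticulum by the enzyme encoded by H6pd. Corticosterone in blood peaks near lights off in these night-active animals.

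The libraries held 5854462 to 37648421 counted reads, with a median of 23223656. Replicate 1 of CardioGRKO at ZT0 was the shallowest and carries another number in its file header than the other 19 libraries, so depth and whatever that number marks cannot be told apart. All 11 cardiomyocyte markers, such as Myh6 and Tnnt2, were counted in every group. Their summed level was 109873 to 124186 CPM (counts relative to the library total, scaled by TMM) in CardioGRKO at ZT12 and 131792 to 135901 CPM in GRflox at ZT12. It was 111273 to 119843 CPM in CardioGRKO at ZT0 and 126499 to 131731 CPM in GRflox at ZT0. Markers of fibroblasts, endothelium, pericytes with smooth muscle, and macrophages were present at lower sums, and the sums of lymphocyte, adipocyte, mesothelial and Schwann or neural markers were at most 18.5 CPM in CardioGRKO and 19.1 CPM in GRflox. In bulk RNA, fewer cells of a type and less RNA per cell cannot be told apart.

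On GRCm38.p6, the assembly also called mm10, Nr3c2 lies on the plus strand of chromosome 8 (76898083 to 77245012). Nr3c2 was the member that passed the main test between lights off and lights on (edgeR adjusted p 0.0212). It passed only averaged over genotypes, in a contrast added after the separate ones had been seen, where Nr3c1 had an edgeR adjusted p of 0.0570. The bases before the main RefSeq start of Nr3c2 are shown for this reason. They lie inside the span of the gene given above, and sequence before any start farther upstream was not examined. They are chr8:76902080-76902287 on the plus strand, 208 bases, and the 42 bases nearest the start were left out because another transcript already has an exon there. Capitals mark CCAAT and GGGCGG on either strand (ATTGG and CCGCCC on the other).
Nr3c2: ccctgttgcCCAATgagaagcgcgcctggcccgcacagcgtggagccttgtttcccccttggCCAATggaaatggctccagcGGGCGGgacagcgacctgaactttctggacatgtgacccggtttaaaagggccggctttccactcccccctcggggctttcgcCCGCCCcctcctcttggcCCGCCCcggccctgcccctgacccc
This stretch was 67.3% G and C, against a median of 51.9% over the 32851 RefSeq promoter windows cut to the same length. It held CCAAT 2 times and GGGCGG 3 times, 1 of them on the plus strand. CCAAT occurred in 29.6% of the windows and GGGCGG in 26.2%. Neither the full glucocorticoid response element (AGAACA, any 3 bases, TGTTCT) nor its half-site AGAACA was found, on either strand, and the element occurred in 0.00913% of the windows and the half-site in 13.7%. The E-box CACGTG (4.59% of windows) and the D-box TTATGTAA (0.700% of windows), elements through which clock proteins act, were not found in it either.

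Nr3c1, which lies on the minus strand of chromosome 18 (39410545 to 39519421), fell to 47.5% of the GRflox level in CardioGRKO at ZT12 and to 48.0% at ZT0, and neither of the other genes passed the test by genotype. At ZT12 the 5 CardioGRKO libraries had 51.9, 48.6, 51.8, 46.7 and 55.9 CPM of Nr3c1, against 109, 117, 95.3, 108 and 106 CPM in GRflox. At ZT0 they had 51.9, 53.8, 54.5, 54.4 and 61.1 CPM, against 118, 122, 106, 113 and 115 CPM in GRflox. Every CardioGRKO library was below every GRflox library of its time. A complete separation of this kind, in the same direction, was seen for 7.22% of the 14007 genes tested at ZT12 and for 5.99% at ZT0.

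The level averaged 51.0 ± 3.50 CPM in CardioGRKO and 107 ± 7.98 CPM in GRflox at ZT12 (SD, n = 5 each). At ZT0 it averaged 55.2 ± 3.51 CPM in CardioGRKO and 115 ± 6.11 CPM in GRflox. The log2 fold change was −1.08 (SE 0.06, 95% confidence interval −1.20 to −0.96) at ZT12, with an adjusted p of 5.17e-12 in edgeR's quasi-likelihood test. At ZT0 it was −1.06 (SE 0.06, interval −1.18 to −0.94), with an adjusted p of 2.04e-11 in the same test. Ranked by p over all genes tested, Nr3c1 was number 6 at ZT12 and number 2 at ZT0, in comparisons that called 21.1% and 14.7% of genes. The difference between the 2 genotype effects was −0.02 (SE 0.08, interval −0.19 to 0.15), with an edgeR adjusted p of 0.993. The counts sum reads over all exons, so transcripts that have lost the floxed part and transcripts from cells without Cre both add to the CardioGRKO value and cannot be told apart.

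Markers of some cell types also differed by genotype, and their part in the Nr3c1 value was not tested. Over all genes tested, 10.4% were higher and 10.7% lower in CardioGRKO at ZT12, and 7.36% and 7.35% at ZT0. Of the 11 cardiomyocyte markers, 9 were lower in CardioGRKO at ZT12 and 6 at ZT0, with median log2 fold changes of −0.22 and −0.16. Of the 12 endothelial markers, 6 were lower at ZT12 and 6 at ZT0, and their summed level was 1337 to 1516 CPM in CardioGRKO and 1562 to 1707 CPM in GRflox at ZT12. Of the 11 fibroblast markers, 1 was higher at ZT12 and none was called at ZT0, near the shares of all genes. Of the 10 pericyte and smooth muscle markers, 1 was higher and 2 were lower at ZT12, and 1 was higher and 4 were lower at ZT0.

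**Figure D1:**
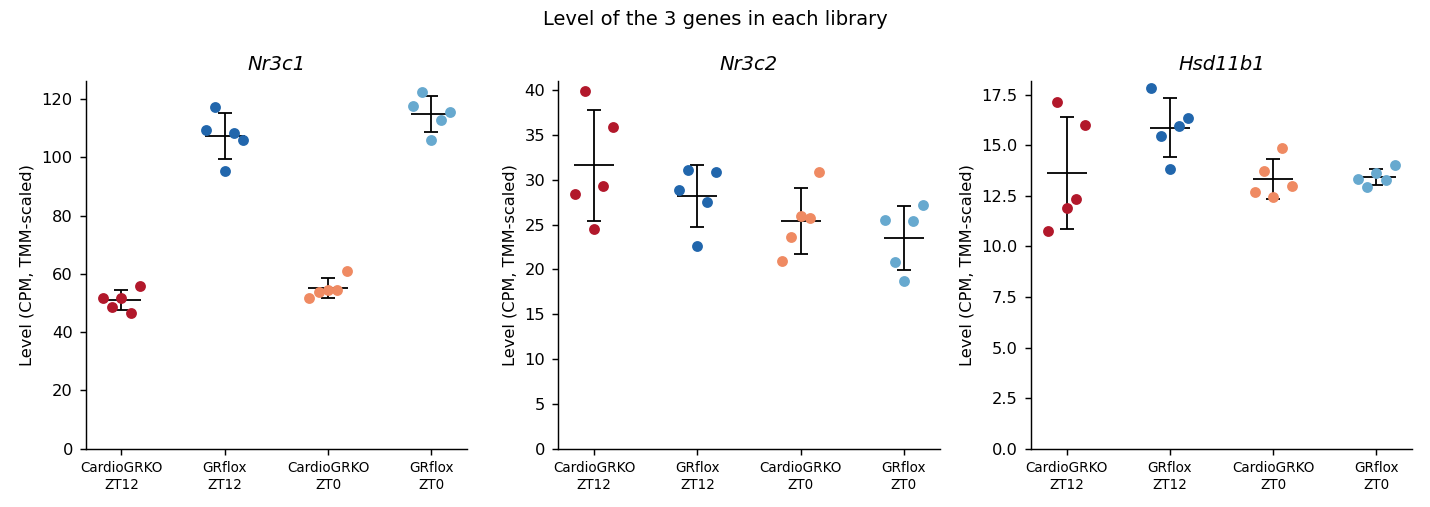
Level of Nr3c1, Nr3c2 and Hsd11b1 in each library (vertical axes, CPM scaled by TMM, starting at 0) for the 4 groups on the horizontal axis; points are libraries, long bars means and short bars SD (n = 5). CardioGRKO libraries lie between 46.7 and 61.1 CPM for Nr3c1, below all GRflox libraries, whereas the groups overlap for Nr3c2 and Hsd11b1.

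Nr3c2 was higher at lights off than at lights on when both genotypes were averaged, by 1.22-fold, and the values of the single genotypes did not pass the test. In CardioGRKO the libraries had 28.5, 40.0, 24.5, 29.4 and 35.9 CPM at ZT12, against 20.9, 23.6, 26.0, 25.7 and 30.9 CPM at ZT0. At ZT12, 2 libraries lay above all ZT0 libraries, and the groups overlapped. In GRflox the libraries had 28.9, 31.1, 22.6, 27.6 and 30.8 CPM at ZT12, against 25.5, 20.8, 18.7, 25.4 and 27.2 CPM at ZT0. There 4 of the 5 ZT12 libraries lay above all ZT0 libraries, and replicate 3 did not.

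The log2 difference of Nr3c2 between ZT12 and ZT0 was 0.30 in CardioGRKO (SE 0.13, interval 0.04 to 0.56), with an unadjusted p of 0.0239 and an adjusted p of 0.143 in edgeR. In GRflox it was 0.26 (SE 0.13, interval 0.00 to 0.52), with an unadjusted p of 0.0488 and an adjusted p of 0.166 in edgeR. The genotypes did not differ detectably in this time difference (0.04, SE 0.18, interval −0.32 to 0.41, edgeR adjusted p 0.991). Averaged over both genotypes, a contrast added after the separate ones had been seen, the difference was 0.28 (SE 0.09, interval 0.10 to 0.46), with an adjusted p of 0.0212 in edgeR. That contrast called 25.7% of the genes tested, 12.8% as higher and 12.9% as lower at ZT12. The adjusted p of Nr3c2 ran from 0.00711 to 0.0499 when each library was left out in turn, and the highest came without replicate 2 of CardioGRKO at ZT12, where the difference was 0.23.

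By genotype, Nr3c2 averaged 31.6 ± 6.21 CPM in CardioGRKO and 28.2 ± 3.44 CPM in GRflox at ZT12, and 25.4 ± 3.66 CPM in CardioGRKO and 23.5 ± 3.60 CPM in GRflox at ZT0 (SD, n = 5 each). The log2 fold change was 0.16 at ZT12 (SE 0.12, interval −0.09 to 0.42, edgeR adjusted p 0.382) and 0.12 at ZT0 (SE 0.13, interval −0.14 to 0.39, edgeR adjusted p 0.588). Averaged over both times it was 0.14 (interval −0.04 to 0.33, edgeR adjusted p 0.235), so the data leave room for a level in CardioGRKO between 0.973 and 1.25 times that of GRflox. The genotype contrast averaged over times called 31.4% of genes. In descending order the group means ran CardioGRKO ZT12, GRflox ZT12, CardioGRKO ZT0 and GRflox ZT0, and no neighbours in that order differed by more than their SD.

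Hsd11b1, on the minus strand of chromosome 1 (193221640 to 193264045), showed no difference that passed the test in any comparison, and its highest group was GRflox at ZT12. At lights off the CardioGRKO libraries had 10.8, 17.2, 11.9, 12.3 and 16.0 CPM, against 17.8, 15.4, 13.8, 15.9 and 16.3 CPM in GRflox. At ZT0 they had 12.7, 13.7, 12.4, 14.9 and 13.0 CPM in CardioGRKO, against 13.4, 12.9, 13.6, 13.3 and 14.0 CPM in GRflox. The CardioGRKO libraries at ZT12 fell apart into 3 low and 2 high ones, and replicates 2 and 5, the high ones, were also the highest of their group for Nr3c2. The GRflox libraries at ZT0 lay closest together, with an SD of 0.398 CPM around a mean of 13.4 CPM, and those of CardioGRKO at ZT12 farthest apart, with an SD of 2.78 CPM around 13.6 CPM. The means of GRflox at ZT12 and CardioGRKO at ZT0 were 15.9 ± 1.45 and 13.3 ± 0.990 CPM.

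At ZT12 the log2 fold change of Hsd11b1 between genotypes was −0.22 (SE 0.10, interval −0.43 to −0.02), with an unadjusted p of 0.0366 and an adjusted p of 0.124 in edgeR. It passed the test without replicate 2 of CardioGRKO at ZT12 (−0.32, edgeR adjusted p 0.0160). At ZT0 the fold change was 0.00 (SE 0.10, interval −0.21 to 0.21, edgeR adjusted p 0.998). Between ZT12 and ZT0 the gene differed by 0.01 in CardioGRKO (SE 0.10, interval −0.21 to 0.22, edgeR adjusted p 0.983) and by 0.23 in GRflox (SE 0.10, interval 0.02 to 0.44, edgeR adjusted p 0.123). The GRflox value passed when the fit held those 2 groups alone (edgeR adjusted p 0.0398). All 5 GRflox libraries at ZT12 lay above the GRflox median at ZT0, and 4 of them above every ZT0 library. The interaction was −0.23 (SE 0.15, interval −0.53 to 0.07, edgeR adjusted p 0.915), in a contrast that called 0.186% of genes.

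Nr3c1 itself was slightly lower at ZT12 than at ZT0 in both genotypes, without passing the test. The log2 difference was −0.12 in CardioGRKO (interval −0.24 to 0.01, edgeR adjusted p 0.255) and −0.10 in GRflox (interval −0.22 to 0.02, edgeR adjusted p 0.256), in comparisons that called 9.17% and 17.3% of genes. Averaged over both genotypes it was −0.11 (SE 0.04, interval −0.19 to −0.02), with an adjusted p of 0.0570 in edgeR and 0.0456 in DESeq2's Wald test. In descending order the group means of Nr3c1 ran GRflox ZT0, GRflox ZT12, CardioGRKO ZT0 and CardioGRKO ZT12. Only the step between the genotypes, from the second to the third place, separated the libraries completely.

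**Figure D2:**
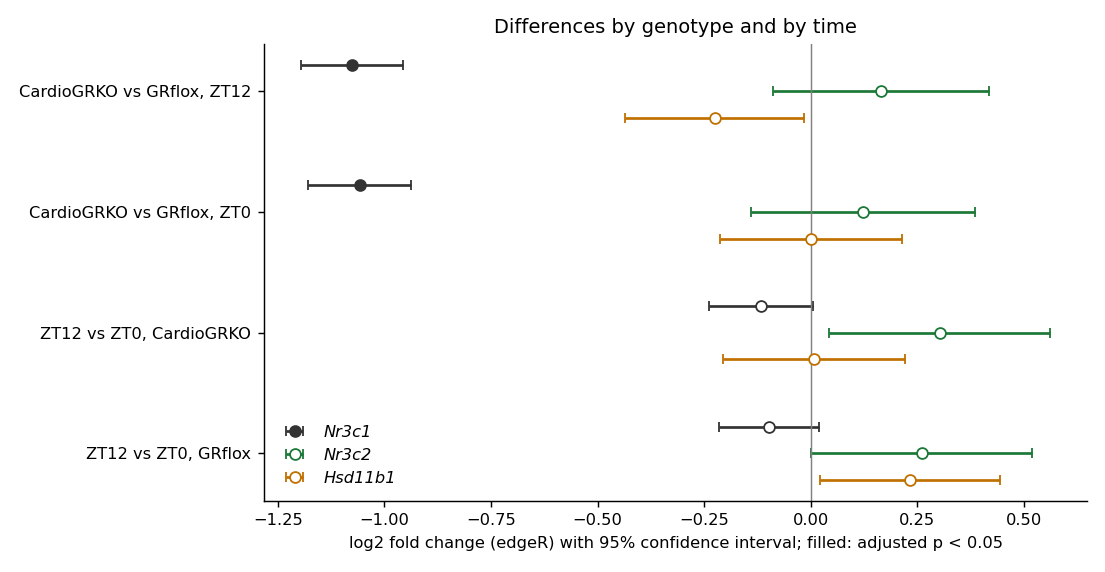
Log2 fold changes of the 3 genes from edgeR (horizontal axis) in the 4 comparisons listed down the page, with 95% confidence intervals; filled points passed an adjusted p of 0.05. Nr3c1 lies at −1.08 and −1.06 between genotypes, and the other 10 values lie between −0.22 and 0.30 with open points.

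Spread between libraries differed among the genes. The biological coefficient of variation was 6.38% for Nr3c1, 13.4% for Nr3c2 and 10.4% for Hsd11b1, against a median of 8.22% over all genes tested. Comparisons of Nr3c2 are therefore less precise than those of Nr3c1 at the same number of libraries.

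Levels of different genes can be set side by side only per length. The exons of Nr3c1, Nr3c2 and Hsd11b1 cover 7684, 6474 and 4251 bases, with the alternative transcripts of each gene merged. Over this length, Nr3c1 stood at 6.64 CPM per kilobase in CardioGRKO and 14.0 in GRflox at ZT12, and at 7.18 in CardioGRKO and 14.9 in GRflox at ZT0. On the same scale Nr3c2 stood at 4.89 in CardioGRKO and 4.36 in GRflox at ZT12, and at 3.93 in CardioGRKO and 3.63 in GRflox at ZT0. Hsd11b1 ranged over the 4 group means from 3.14 to 3.73 CPM per kilobase. Nr3c1 was thus the highest of the 3 in every group, also after its loss. The order of Nr3c2 and Hsd11b1 depended on the length used: over the longest coding transcript (1623 bases for Hsd11b1, 5916 for Nr3c2) the group means were 8.22 to 9.78 for Hsd11b1 and 3.98 to 5.35 for Nr3c2. By that length Hsd11b1 was also above Nr3c1 (7.92) in CardioGRKO at ZT12, with 8.40 CPM per kilobase.

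The ratio of Nr3c1 to Nr3c2 within a library cannot be moved by scaling between libraries. It was lower in CardioGRKO and, to a lesser extent, at ZT12. The genotype difference mainly restates the lower level of Nr3c1, the floxed gene, since Nr3c2 did not pass the test by genotype. At ZT12 the counts of Nr3c1 were 1.22 to 2.12 times those of Nr3c2 in CardioGRKO, against 3.44 to 4.21 times in GRflox. At ZT0 they were 1.98 to 2.48 times in CardioGRKO and 4.25 to 5.87 times in GRflox. The genotypes did not overlap at either time. The mean log2 ratio differed by −1.23 at ZT12 and by −1.17 at ZT0 (each exact p = 0.00794, 2-sided permutation test, the smallest p that 5 against 5 allows, and adjusted p = 0.0136 over 12 ratio tests).

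Between times, the ratio of Nr3c1 to Nr3c2 had a lower mean at ZT12 than at ZT0 in both genotypes. In GRflox it averaged 3.83 ± 0.279 at ZT12 and 4.97 ± 0.749 at ZT0 (SD, n = 5 each), with no overlap of libraries. The log2 difference was −0.37 with an exact permutation p of 0.00794 (adjusted p = 0.0136). Neither gene passed alone by time in GRflox (edgeR adjusted p 0.256 for Nr3c1 and 0.166 for Nr3c2). How often the ratios of other gene pairs separate in this way was not tested. In CardioGRKO the ratio averaged 1.66 ± 0.334 at ZT12 and 2.19 ± 0.194 at ZT0. There the log2 difference was −0.42 with an exact permutation p of 0.0317 (adjusted p = 0.0476), and the libraries overlapped. The adjustment also took in the genotype tests of ratios with Nr3c1, whose low p mainly restates the lower level of the floxed gene. Their low p eases the adjustment of the other ratio tests, and an adjustment without them was not run. The adjusted p therefore cannot decide whether the ratio differed by time in CardioGRKO. Its call was also lost when any of 9 of the 10 libraries was left out, with adjusted exact p from 0.0635 to 0.0952. The exception was replicate 3 at ZT12.

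Set against the enzyme, Nr3c1 fell and Nr3c2 rose in CardioGRKO at ZT12. The ratio of Nr3c1 to Hsd11b1 averaged 3.86 ± 0.767 in CardioGRKO and 6.79 ± 0.544 in GRflox at ZT12, and 4.15 ± 0.406 in CardioGRKO and 8.56 ± 0.630 in GRflox at ZT0. Its log2 differences between genotypes, −0.84 at ZT12 and −1.05 at ZT0, each had an exact permutation p of 0.00794 (adjusted p = 0.0136). They too mainly restate the lower level of Nr3c1. The ratio of Nr3c2 to Hsd11b1 was 2.05 to 2.64 in CardioGRKO at ZT12, above all GRflox libraries of that time, which had 1.62 to 2.02. The log2 difference was 0.39 (exact permutation p = 0.00794, adjusted p = 0.0136), although neither gene passed the test alone. At ZT0 the genotypes overlapped, with 1.65 to 2.37 in CardioGRKO and 1.37 to 1.94 in GRflox (log2 difference 0.13, adjusted exact permutation p = 0.485).

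With time, the ratio of Nr3c1 to Hsd11b1 was lower at ZT12 than at ZT0 in GRflox by 0.33 on the log2 scale (adjusted exact permutation p = 0.0136). Neither gene passed the test alone by time in GRflox. In CardioGRKO the ratio differed by −0.12 (adjusted exact permutation p = 0.485). The ratio of Nr3c2 to Hsd11b1 differed between ZT12 and ZT0 by 0.29 in CardioGRKO and by 0.03 in GRflox, with adjusted exact permutation p of 0.0847 and 0.778. Whether the time differences of these ratios differ between genotypes was not tested.

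**Figure D3:**
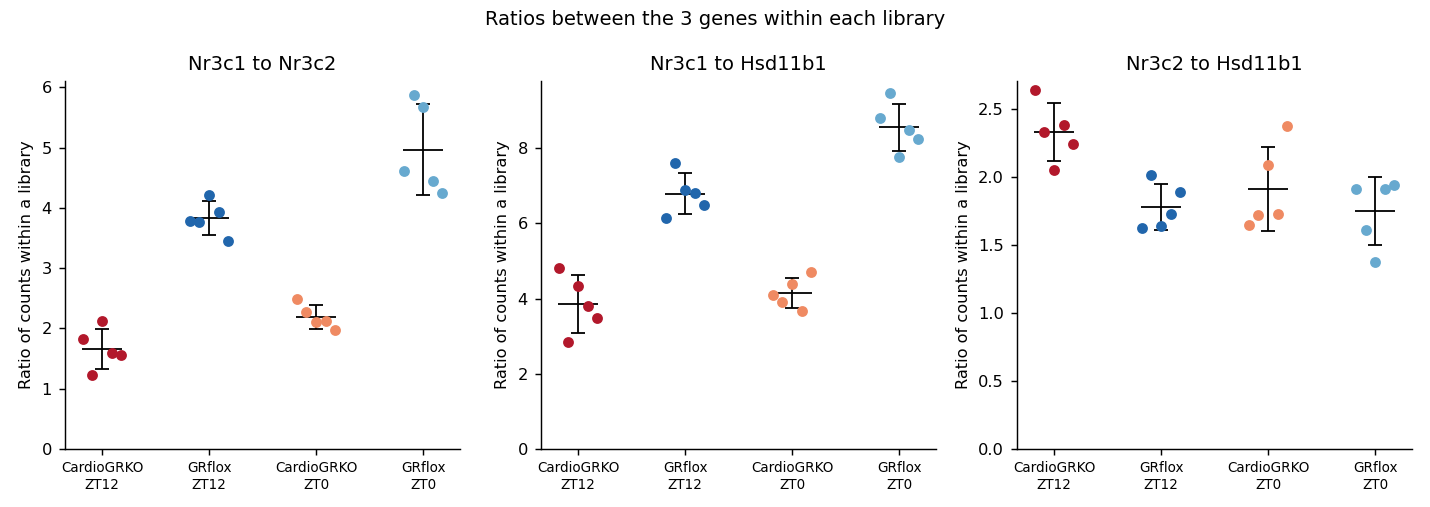
Ratio of the counts of 2 genes within each library (vertical axes, linear, starting at 0) for Nr3c1 to Nr3c2, Nr3c1 to Hsd11b1 and Nr3c2 to Hsd11b1 in the 4 groups; points are libraries, long bars means and short bars SD (n = 5). The first ratio averages 1.66 in CardioGRKO and 3.83 in GRflox at ZT12, and the third is higher in every CardioGRKO library than in every GRflox library at ZT12.

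Within groups, Nr3c2 and Hsd11b1 varied together. After each group's mean was subtracted, their log2 CPM values had a Pearson r of 0.61 and a Spearman rho of 0.59 over 20 libraries (permutation p 0.0165 and 0.0192, adjusted over 3 pairs 0.0495 and 0.0577). Without the 2 libraries farthest from the median of Nr3c2, r was 0.64. Without the shallowest library r was 0.61 and its adjusted permutation p 0.0745. Nr3c1 and Nr3c2 had an r of 0.49 and a rho of 0.42 (adjusted permutation p 0.0700 and 0.138), and neither passed. Without the 2 libraries farthest from the median of Nr3c1, r was 0.29, so its size depended in part on them. Nr3c1 and Hsd11b1 had an r of 0.15 (adjusted permutation p 0.614) and a rho of 0.11 (adjusted permutation p 0.671).

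These deviations were also set against the summed markers of 9 cell types and the library total, 30 relations in all, which were chosen after the values had been seen. Nr3c2 was lower in libraries with more macrophage marker RNA, with an r of −0.74 and a rho of −0.72 (adjusted permutation p 0.0360 and 0.0262, n = 20). Without the 2 farthest libraries r was −0.62. Lyz2 and C1qa made up 47.3% of the macrophage sum. Of its 9 markers taken singly, 8 had an r below 0 with Nr3c2, the lowest Cd68 (−0.84). Csf1r (−0.10) and Mrc1 (−0.08) were near 0, and Cx3cr1 was above 0 (0.18), so not every macrophage marker showed the relation. Nr3c2 was higher in libraries with more RNA of pericyte and smooth muscle markers, with an r of 0.70 and a rho of 0.77 (adjusted permutation p 0.0444 and 0.0177). Without 2 libraries r was 0.74. Abcc9, a potassium channel subunit gene that cardiomyocytes also express, and Acta2, smooth muscle actin, made up 42.3% and 18.9% of this sum, and the other 8 markers 38.9%. Taken singly, all 10 of its markers had an r above 0 with Nr3c2, the highest Abcc9 (0.80), Kcnj8 (0.79) and Rgs5 (0.78), and the lowest Tagln (0.12) and Acta2 (0.13). With each marker of a list weighted equally, chosen after the values had been seen, neither relation passed over the 30: r was −0.72 for macrophage markers and 0.67 for pericyte and smooth muscle markers (adjusted permutation p 0.0573 and 0.0786).

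None of the other 28 relations to the sums passed. Against the summed cardiomyocyte markers, r was 0.61 for Nr3c2 (unadjusted permutation p 0.0157, adjusted 0.0915) and 0.66 for Hsd11b1 (unadjusted permutation p 0.0299, adjusted 0.119). Without the 2 farthest libraries these were 0.50 and 0.32. The part of the cardiomyocyte markers in the relation between Nr3c2 and Hsd11b1 was not tested. Against the library total, Nr3c2 had an r of −0.19 (adjusted permutation p 0.621).

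Some marker sums moved with the time of day. The 12 endothelial markers summed to 1337 to 1516 CPM in CardioGRKO at ZT12 and 1567 to 1680 CPM in CardioGRKO at ZT0, and in GRflox to 1562 to 1707 CPM at ZT12 and 1767 to 1882 CPM at ZT0, without overlap in either genotype. Averaged over both genotypes, 2 of them were higher and 7 were lower at ZT12. The cardiomyocyte sums given above overlapped between times in CardioGRKO. In GRflox they were higher at ZT12, but the closest libraries nearly met, at 131792 CPM at ZT12 and 131731 CPM at ZT0. Of the 11 cardiomyocyte markers, 2 were higher and 9 were not called by time in GRflox, with a median log2 difference of 0.03. Myh6 made up 44.4% of the cardiomyocyte sum. How often other sums or genes separate between times was not summarised. The macrophage, pericyte and smooth muscle sums overlapped between times. The 9 macrophage markers in the tables summed to 327 to 464 CPM in CardioGRKO at ZT12 and 331 to 429 CPM in CardioGRKO at ZT0, and in GRflox to 362 to 436 CPM at ZT12 and 316 to 454 CPM at ZT0. The 10 pericyte and smooth muscle markers summed to 1385 to 1861 CPM in CardioGRKO at ZT12 and 1590 to 1879 CPM in CardioGRKO at ZT0. In GRflox they summed to 1499 to 1769 CPM at ZT12 and 1502 to 1694 CPM at ZT0. No marker of the macrophage or the pericyte and smooth muscle list was without counts in any group. Averaged over both genotypes, 2 macrophage markers were higher and 1 was lower at ZT12, and 2 pericyte and smooth muscle markers were higher. Over all genes tested, this contrast called 12.8% as higher and 12.9% as lower. The part of cell composition in the time difference of Nr3c2 was not tested.

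**Figure D4:**
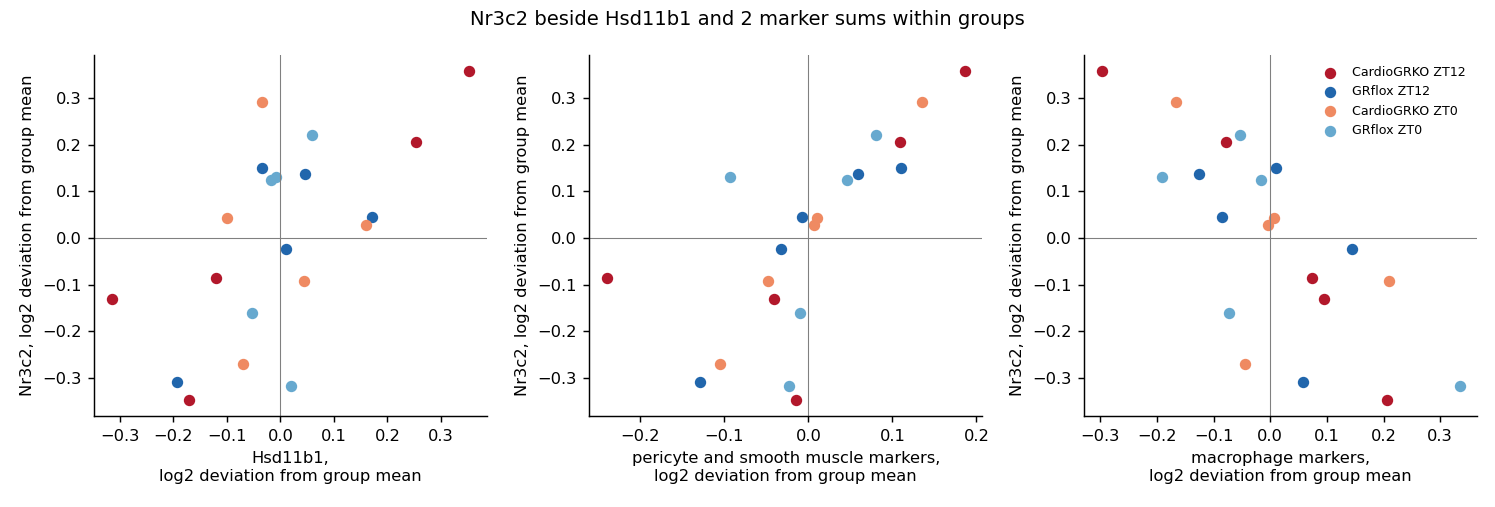
Log2 CPM of Nr3c2 after its group mean was subtracted (vertical axes) against Hsd11b1, the summed pericyte and smooth muscle markers, and the summed macrophage markers, treated likewise (horizontal axes); each point is 1 of 20 libraries, coloured by group. The points rise with Hsd11b1 (r 0.61) and with pericyte and smooth muscle markers (r 0.70) and fall with macrophage markers (r −0.74).

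The genes whose level ran most like that of each member were ranked by r of log2 CPM over the 20 libraries, among 11354 genes, as a description. For Nr3c1 they were Ogdhl (r 0.963), a relative of the oxoglutarate dehydrogenase of mitochondria, Efnb3 (0.959), an ephrin ligand, Dmd (0.956), which encodes dystrophin, Myot (0.955), the Z-disc protein myotilin, and Oat (0.953), ornithine aminotransferase. The group means dominate these values: all 5 were lower in CardioGRKO, by −2.61 on the log2 scale at ZT12 and −2.46 at ZT0 for Ogdhl (edgeR adjusted p 1.98e-14 and 1.04e-13). For Nr3c2 they were Apbb2 (0.911), Rbm3 (0.874), a cold-inducible RNA-binding protein, Akap13 (0.867), an anchoring protein of protein kinase A, Synj2 (0.865), an inositol phosphatase, and Akap7 (0.848), another kinase anchor. Of these, Akap13 was higher at ZT12 than at ZT0 in CardioGRKO (0.27) and in GRflox (0.18), and Synj2 in GRflox (0.37). For Hsd11b1 they were Anapc4 (0.829), a subunit of the anaphase-promoting complex, Mpc1 (0.757), a carrier of pyruvate into mitochondria, Nampt (0.748), an enzyme of NAD synthesis, Zfp280d (0.747) and Spag7 (0.747).

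With group means subtracted, Nr3c2 had many more companions than the other members. It had an r above 0.8 with 73 genes and below −0.8 with 59. The numbers were 2 and 3 for Nr3c1, and 1 and 1 for Hsd11b1. Such numbers were not taken for other genes. Nr3c2 also had the highest biological coefficient of variation of the 3. Its closest genes by this measure were Nhsl1 (0.902), Apbb2 (0.896), Ppp2r3a (0.892), a regulatory subunit of protein phosphatase 2A, Ppm1k (0.882), a phosphatase of branched-chain amino acid breakdown, and Ces1d (0.882), a lipid hydrolase. For Nr3c1, Tab3 (0.809), Sgce (0.783), Ddx26b (0.770) and Acap2 (0.765) were among the closest, and for Hsd11b1 they were Ppl (0.825), Spa17 (0.794), Ngfrap1 (0.776), Anapc4 (0.774) and Arl6ip4 (0.756). Apbb2 for Nr3c2 and Anapc4 for Hsd11b1 stood in both rankings.

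Neighbouring genes were read from the annotation. Arhgap26, which encodes a GTPase-activating protein, lies 34259 bases from Nr3c1 and was lower in CardioGRKO at ZT12 (−0.32, edgeR adjusted p 6.13e-04), whereas it stood at −0.05 at ZT0 (edgeR adjusted p 0.688). Arhgap10, a gene of the same family on the opposite strand 5353 bases from Nr3c2, was lower in CardioGRKO at ZT12 (−0.22, edgeR adjusted p 2.20e-04) and did not pass between times (−0.10 in CardioGRKO and 0.04 in GRflox). G0s2, an inhibitor of fat breakdown 8114 bases from Hsd11b1, and Traf3ip3 on its other side (20093 bases) did not pass in any comparison. Reads of antisense transcripts cannot be told apart from those of Nr3c2 where they overlap, since no source used here gives the strand setting of the counting. The lncRNA Gm10649 overlaps the first bases of Nr3c2.

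Of the partners of Hsd11b1, H6pd was lower in CardioGRKO at ZT12 and passed the test, and it was also lower at ZT0, where Hsd11b1 did not differ detectably. H6pd had in CardioGRKO libraries at ZT12 54.2, 58.7, 45.0, 52.8 and 59.4 CPM, against 68.7, 67.3, 65.9, 66.3 and 64.7 CPM in GRflox. The groups did not overlap, and the log2 fold change was −0.30 (SE 0.06, edgeR adjusted p 2.82e-04). In GRflox it was higher at ZT12 than at ZT0 (0.25, SE 0.06, edgeR adjusted p 0.00268). The means at ZT0 were 50.2 ± 1.56 CPM in CardioGRKO and 56.0 ± 2.07 CPM in GRflox. There the libraries did not overlap either, with 48.6 to 52.0 CPM in CardioGRKO and 54.0 to 58.6 CPM in GRflox, although H6pd did not pass. Complete separation downward was seen for 7.22% of genes tested at ZT12 and 5.99% at ZT0. Averaged over both times, H6pd was called lower in CardioGRKO, and this call was kept in all 25 alternatives. Slc37a4, the transporter that brings the substrate of H6pd into the endoplasmic reticulum, did not pass in any of these comparisons.

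Of the C/EBP factors, known regulators of Hsd11b1, Cebpb had in CardioGRKO libraries at ZT12 15.4, 16.5, 18.1, 35.5 and 26.6 CPM, against 42.9, 45.3, 49.3, 57.6 and 49.1 CPM in GRflox. It was lower in CardioGRKO at ZT12 by −1.12 on the log2 scale (SE 0.24, edgeR adjusted p 0.00117), without overlap of libraries. In GRflox it was higher at ZT12 than at ZT0 (1.55, SE 0.24, edgeR adjusted p 6.12e-05), and in CardioGRKO the time difference was 0.57 and did not pass. The interaction of genotype and time was called for none of the 3 C/EBP genes. Cebpd was higher at ZT12 in GRflox (0.62), and Cebpa did not pass in any comparison.

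The inactivating enzyme and the steroid-making enzymes were near or below detection. Hsd11b2 had 68 counts in all over 16 of 20 libraries, with 0 to 9 counts per library in CardioGRKO and 0 to 11 in GRflox, and was not tested. Cyp11b1, the last enzyme of corticosterone synthesis, had 2 counts in all, Cyp21a1 had 1, and Cyp11b2, the aldosterone synthase, had 0. Of 16 genes of steroid synthesis, activation and transport, 6 were tested, and H6pd was the one called in the 4 comparisons by genotype at a time or by time in a genotype. Of the other steroid receptors, Esr1, an estrogen receptor, did not pass in any of these comparisons.

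Over all genes tested, 10.4% were higher and 10.7% lower in CardioGRKO at ZT12, and 7.36% were higher and 7.35% lower at ZT0. Between ZT12 and ZT0, 4.42% were higher and 4.75% lower in CardioGRKO, and 8.13% were higher and 9.17% lower in GRflox. Of 15 chaperones and immunophilins that hold the receptors ready for hormone, none was higher and 2 were lower in CardioGRKO at ZT12, and none was higher and 1 was lower at ZT0, shares of lower genes close to those of all genes. The list medians were 0.09 at both times, and the medians of all genes tested were 0.00 at ZT12 and −0.01 at ZT0. Fkbp5 encodes an immunophilin that restrains the receptor and is itself a target of it. It averaged 26.7 ± 6.37 CPM in CardioGRKO and 50.1 ± 19.2 CPM in GRflox at ZT12, and 7.85 ± 2.43 CPM in CardioGRKO and 15.2 ± 4.39 CPM in GRflox at ZT0. It was higher at ZT12 than at ZT0 by 1.76 in CardioGRKO and by 1.70 in GRflox (edgeR adjusted p 7.77e-05 and 1.56e-05). Ppp5c, a phosphatase bound to receptor complexes, was lower in CardioGRKO at ZT12 by −0.21.

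Coregulators of the receptors were lower in CardioGRKO where they passed. Of 13, none was higher and 5 were lower at ZT12, and none was higher and 4 were lower at ZT0, with list medians of −0.12 and −0.15. Lower genes made up 10.7% of all genes tested at ZT12 and 7.35% at ZT0. The 4 that were lower at both times were the acetyltransferase genes Crebbp (−0.25 at ZT12 and −0.17 at ZT0) and Ep300 (−0.20 and −0.16), the coactivator Ncoa3 (−0.20 and −0.15) and the corepressor Ncor1 (−0.13 and −0.20). With time, 2 were higher and 1 was lower at ZT12 in CardioGRKO, and 4 were higher and 2 were lower in GRflox. The shares of all genes were 4.42% higher and 4.75% lower in CardioGRKO, and 8.13% and 9.17% in GRflox. Ncoa1 fell in both genotypes (−0.15 in CardioGRKO and −0.27 in GRflox), and Ep300 (0.22 and 0.25) and Ncoa3 (0.18 and 0.23) rose. The coregulator calls are small and several stood close to the threshold. When each library was left out in turn, 3 to 6 of the 13 were called at ZT12 and 1 to 5 at ZT0, and the call of Ncoa1 in CardioGRKO was lost in 16 of 26 alternatives.

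Among 12 classic targets of the glucocorticoid receptor, none was higher and 5 were lower in CardioGRKO at ZT12, and none was higher and 3 were lower at ZT0, with list medians of −0.44 and −0.21. Over all genes tested, 10.7% were lower at ZT12 and 7.35% at ZT0. Fkbp5 was also counted among the chaperones and immunophilins, and Cebpd among the C/EBP factors. The time difference was seen in both genotypes: 6 were higher and 1 was lower at ZT12 in CardioGRKO, and 7 were higher and 1 was lower in GRflox. Over all genes tested, 4.42% were higher and 4.75% lower in CardioGRKO, and 8.13% and 9.17% in GRflox. Zbtb16, a zinc finger repressor, was the 1 gene of these lists with a called interaction. At ZT12 it had 98.9, 91.3, 51.2, 116 and 115 CPM in CardioGRKO, against 287, 259, 347, 298 and 310 CPM in GRflox, and averaged 42.3 ± 4.16 CPM in CardioGRKO and 50.2 ± 12.6 CPM in GRflox at ZT0. Its rise at ZT12 was 1.15 in CardioGRKO and 2.59 in GRflox, and the interaction was −1.44 (SE 0.24, edgeR adjusted p 0.00533). Klf9, a Kruppel-like factor, was lower in CardioGRKO at both times (−0.52 at ZT12 and −0.33 at ZT0), and Tsc22d3, Sgk1 and Dusp1 did not pass between genotypes.

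Genes linked to the mineralocorticoid receptor in heart, kidney or cell models did not move one way. Of 13, 12 were tested. At ZT12, 1 was higher and 3 were lower in CardioGRKO, and at ZT0, 1 was higher and 2 were lower. Over all genes tested, 10.4% were higher and 10.7% lower at ZT12, and 7.36% and 7.35% at ZT0. The 1 higher gene at each time is near these shares. Lcn2, which encodes lipocalin 2, was lower in CardioGRKO (−2.22 at ZT12 and −1.39 at ZT0), and Ctgf, a matrix signalling protein, was higher (0.73 and 1.10). With time, 2 were higher and none was lower at ZT12 in CardioGRKO, and 4 were higher and 1 was lower in GRflox. All genes tested had shares of 4.42% higher and 4.75% lower in CardioGRKO, and 8.13% and 9.17% in GRflox. The matrix gene Tnxb rose at ZT12 in both genotypes (0.36 in CardioGRKO and 0.43 in GRflox). Sgk1, counted in both this list and that of glucocorticoid targets, stood at −0.17 at ZT12 and −0.19 at ZT0 between genotypes.

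**Figure D5:**
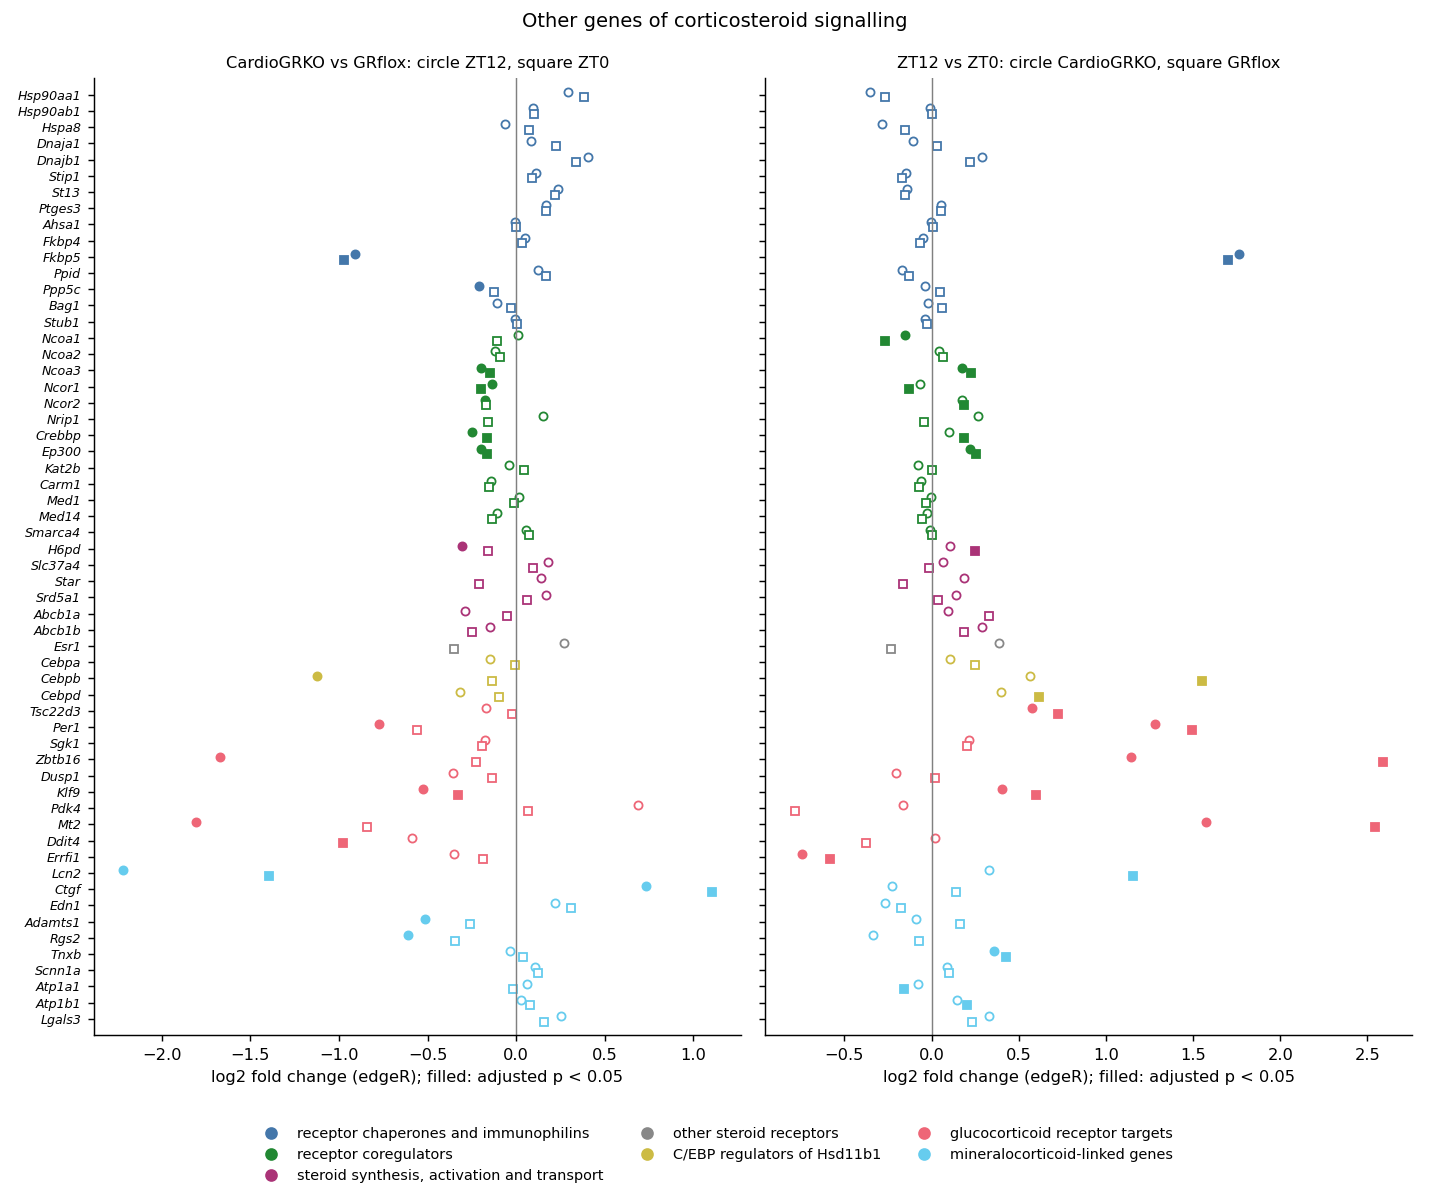
Log2 fold changes from edgeR (horizontal axes) of tested genes of 7 lists around the receptors (rows, coloured by list): left, CardioGRKO against GRflox at ZT12 (circles) and ZT0 (squares); right, ZT12 against ZT0 in CardioGRKO (circles) and GRflox (squares). Filled symbols passed an adjusted p of 0.05, and Fkbp5 stands at −0.91 and −0.97 on the left and at 1.76 and 1.70 on the right.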

How the data were processed

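The authors deposited 1 table of raw counts per gene for each of 20 libraries. Per the submitters' processing notes, DESeq2 1.38.3, STAR 2.5.1 and featureCounts (Subread 1.5.1) were used with build mm10. Annotation release, strand setting and treatment of reads matching several genes are given by no source used here. Per the labels' protocols, poly(A)-enriched TruSeq libraries were read on a NovaSeq with 75-base paired ends. The labels do not say that libraries come from separate animals, so p-values measure the spread between these samples.

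The 24918 lines per table were summed to 24059 genes by Entrez identifier, of which 99.6% matched the reference table. Group means were fitted to all 20 libraries with edgeR 4.0.16 in R 4.3.3, on the deposited counts, with TMM factors of 0.961 to 1.040. filterByExpr (minimum count 10, minimum total 15) left 14007 genes, and all 3 members passed. Each p-value of the quasi-likelihood F-test was adjusted by Benjamini-Hochberg within its contrast over all genes, with a threshold of 0.05. CPM values use TMM factors, and a prior count of 2 was added for log2 CPM. Ratios used 2-sided exact permutation tests, and correlations 100000 permutations within groups. Similar genes needed a mean log2 CPM of at least 1. Promoter sequence came from RefSeq (GRCm38.p6) and exon positions from the GENCODE vM21 annotation, and the fit was tested on simulated data. Alternatives were DESeq2 1.42.0, its size factors, no filter, thinned counts, a replicate block, the compared groups alone, and leaving out each library.

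The members and gene lists were chosen with earlier results of these data known. Genes named are the members, genes of the lists, the 5 most similar genes by 2 measures, and neighbours, some of which are not reported here by name although the counts include them. Pairing by replicate number was not established: of 30 same-numbered pairs, 8 had a correlation of deviations over 0.1, within −0.27 to 0.23. Of the 20 libraries, 7 were most like a library of their own number in another group. Pairs of different numbers were not summarised, so these values cannot exclude pairing.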

Additional observations from a re-analysis of the deposited data

Results flagged for a closer look

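Replicate 5 of CardioGRKO at ZT0 stood apart from its group in Nr3c1, with 61.1 CPM, against 51.9 to 54.5 CPM in the other 4 libraries. The gap was 0.712 of the group's range, just over the critical value of 0.710 for 5 libraries. It was the only 1 of 24 groups of values checked, over the 3 genes and their 3 ratios, and chance alone marks about 1 in 20. Zbtb16 was the list gene whose genotype difference changed with time, by −1.44 on the log2 scale at ZT12 relative to ZT0 in edgeR's interaction test.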

How the results depend on the processing

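The fall of Nr3c1 in CardioGRKO at each time and the rise of Nr3c2 at ZT12 averaged over genotypes kept their direction and passed the test under every alternative run. The number of genes called for the interaction, 26 in edgeR, was 69 with DESeq2 and 16 to 33 when 1 library was left out. With counts thinned to the shallowest library, the genes called were 1892 by genotype at ZT12 (2952 at full depth), 1329 at ZT0 (2060), 743 by time in CardioGRKO (1284), 1509 in GRflox (2423) and 2281 averaged over genotypes (3594), so depth limits these counts.

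The averaged time difference of Nr3c1 (−0.11) passed the test with DESeq2 (−0.11), with the replicate block (−0.11) and without any of 6 libraries, over a range of −0.129 to −0.0864. With 1 library left out, values of Hsd11b1 ran from −0.32 to −0.15 by genotype at ZT12, −0.0423 to 0.0351 by genotype at ZT0 and −0.0982 to 0.0762 by time in CardioGRKO. Those of GRflox by time were 0.23 with the compared groups alone. The interactions ran from −0.0592 to 0.0176 for Nr3c1 and from −0.0600 to 0.119 for Nr3c2. The time differences of ratios ran from −0.51 to −0.31 for Nr3c1 to Nr3c2 in CardioGRKO, and for Nr3c2 to Hsd11b1 from 0.24 to 0.38 in CardioGRKO and from −0.0536 to 0.0715 in GRflox. The correlation of Nr3c2 with Hsd11b1 missed the threshold with DESeq2 size factors (r 0.61, adjusted permutation p 0.0502) and without the shallowest library (r 0.61). With markers weighted equally, Nr3c2 missed the threshold against macrophage markers (r −0.72) and against pericyte and smooth muscle markers (r 0.67). The causes were not tested.

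With the replicate number as a block, although pairing by number was not established, Hsd11b1 differed by −0.0040 between genotypes at ZT0. Without the block it differed by 0.00064, and both values were near 0. The averaged time difference of Nr3c1 passed with the block, as given above, and no other call of the 3 genes changed. Of the list genes' values, 193 lost their call in an alternative and 2593 did not. The fit of the compared groups alone was not run for the interaction or the averaged contrasts, which need all groups.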
